A study of Mus musculus with 12 samples.

Results

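Cells take up sugar through facilitative carriers, break it down by glycolysis to pyruvate, and either burn the pyruvate in mitochondria or reduce it to lactate for export. A side branch, the pentose phosphate pathway, makes NADPH and ribose. Hypoxia-inducible factor 1 (HIF-1), whose alpha subunit is encoded by Hif1a, is destroyed when oxygen is present and otherwise switches on many genes of sugar uptake and glycolysis. Microglia, the resident macrophages of the brain, are known for their fructose carrier GLUT5 (Slc2a5) and for raising glycolysis when activated.

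The genes described here are 41 genes of sugar and lactate transport, glycolysis, the pentose phosphate pathway and the hypoxia response, taken from a list of names, not by a threshold on their values, though earlier results of these data were known. Of these, 40 were measured, among 16755 transcript clusters at the gene level and 22184 named genes at the exon level. A gene was read from a gene-level cluster that carries its symbol alone, which held for 33 genes, and otherwise from the median of its exon-level probesets, which held for 7 genes (Hk3, Gpi1, Gapdh, Pgk1, Pgam1, Eno1 and Ldha). G6pdx, which encodes the first enzyme of the pentose phosphate pathway, was not the sole symbol of any row and was not analysed here.

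RNA came from microglia of mice labelled Lrrc33-/- (called KO-labelled, 3 samples) and Lrrc33+/+ (called WT, 3 samples), all 3 weeks old. The gene is now named Nrros, and its protein holds latent TGF-beta1 on myeloid cells. A flow cytometer collected brain cells that were CD45low, CD11b+, CD39+ and Ter119-, and each sample was read on 1 Affymetrix mouse exon array. The comparison asks how these RNAs differ between cells of mice with the 2 genotypes on the labels. The labels call the samples biological replicates but do not give the strain, the structure of the allele or the number of mice in a sample, so the p-values speak of the spread among these 6 arrays, part of which may be technical.

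Nrros RNA stood at 9.86, 9.89 and 9.83 (log2 RMA level) against 9.94, 9.88 and 9.60 in WT, with no drop (difference 0.05, SE 0.09; adjusted p = 0.759 by limma). Whether the probes lie in an altered part of the gene is not known, so this level cannot test the labels. Every direction below rests on the labels. RNA of Itgam, the CD11b gene of the sort, fell by 1.81 (SE 0.07) in KO-labelled samples. Of the other sort markers, Ptprc (CD45) rose by 0.46 (SE 0.07; adjusted p = 0.00308 by limma) and Entpd1 (CD39) fell by 0.36 (SE 0.07; adjusted p = 0.00789 by limma), with Entpd1 not called once the arrays were quantile-normalized again (adjusted p = 0.0718) or by its exon-level median (adjusted p = 0.138). WT replicate 3 stood apart in Y-linked RNA: Eif2s3y was at 3.06 to 3.15 in the KO-labelled arrays, against 3.10, 3.14 and 7.72 in WT replicates 1 to 3. Kdm5d, also Y-linked, was at 3.91 to 3.99 against 3.91, 3.90 and 6.75. Only male cells carry such RNA, so the groups were not alike in sex. All 9 measured microglia markers were lower in KO-labelled samples, where 14.0% of all clusters were lower. The mean of that list was 9.38 to 9.47 (log2) per KO-labelled array and 11.87 to 11.93 per WT array, and Cx3cr1, a defining marker, stood at 11.90 to 12.11 and 12.81 to 12.87. Sall1, a transcription factor that marks microglia, was at 5.46 to 5.55 in KO-labelled and 11.22 to 11.34 in WT arrays. Of 10 markers of border-associated macrophages, which line brain vessels and membranes, 9 were higher, against 14.4% of all clusters. The list means were 10.70 to 10.83 in KO-labelled and 8.41 to 8.45 in WT arrays. The part of these cells in the results below was not tested. In sorted bulk RNA a changed mix of cells and changed RNA per cell cannot be told apart.

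All 6 sugar and lactate carriers passed the test, 5 of them lower in KO-labelled samples, as did 11 of 24 genes of glycolysis, 1 of 3 of the pentose phosphate pathway and 3 of 7 of the hypoxia response. Differences are KO-labelled minus WT on the log2 scale, with moderated standard errors, and a gene was called at a Benjamini-Hochberg adjusted p under 0.05 in limma over all features of its table. At the gene level 16 of 33 members were lower in KO-labelled samples, or 48.5%, against 14.0% of all clusters. The higher members numbered 3 of 33, or 9.09%, against 14.4% of all clusters (28.4% in either direction). At the exon level 1 of 7 members was lower and 1 higher, against 7.53% and 8.38% of all genes there. Together 17 of 40 members were lower, 4 were higher and 19 did not pass, with a median difference of -0.21 against -0.02 over all clusters. Of the 33 members at the gene level, 9 were called and at least 1.5-fold lower, and 2 were called and at least 1.5-fold higher. Over all clusters 5.07% were called and at least that much lower and 5.78% higher, so the higher count lay near its share. No member read at the exon level was called with such a size.

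**Figure D1:**
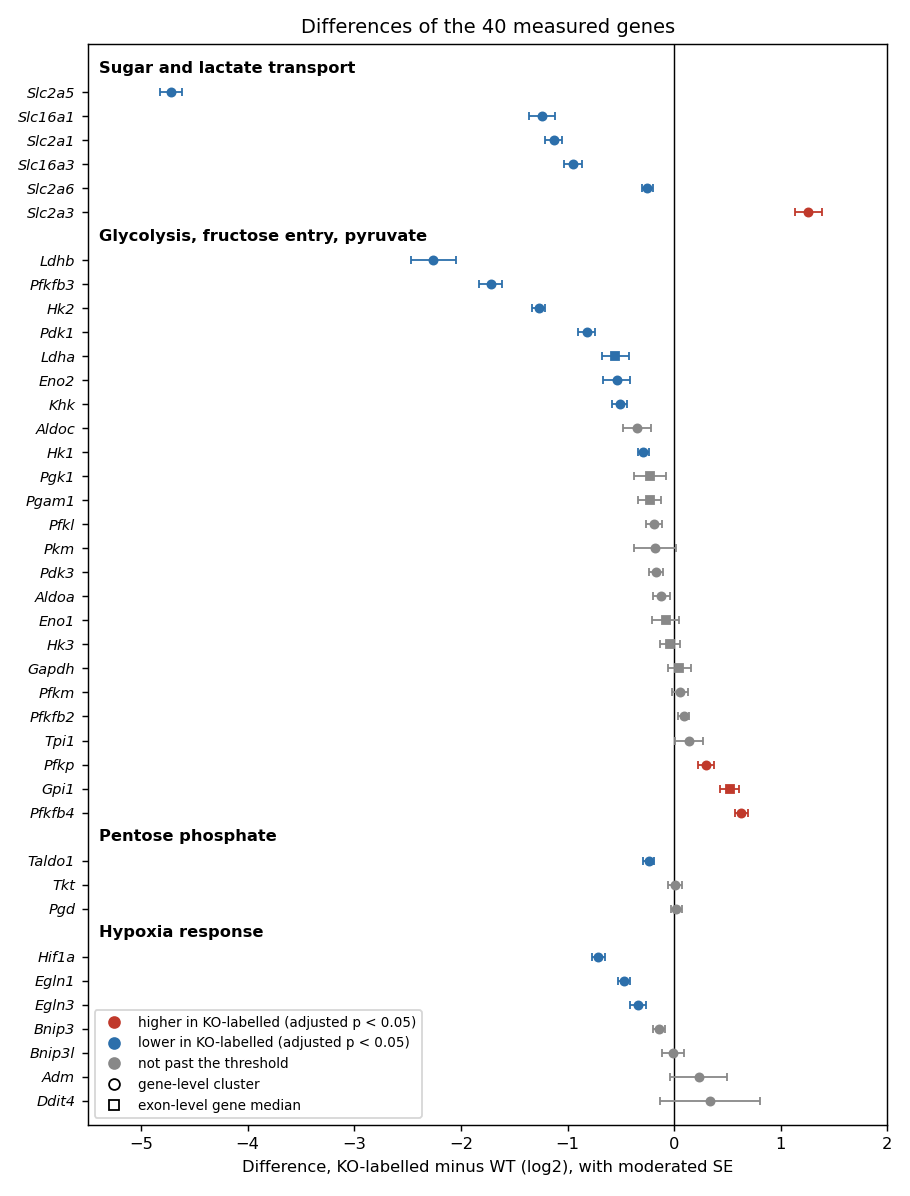
Difference between KO-labelled and WT samples for each of the 40 measured genes (log2, x axis), with its moderated standard error as a bar, n = 3 arrays per group. Circles are gene-level clusters and squares exon-level gene medians; Slc2a5 at -4.72 lies farthest to the left and Slc2a3 at 1.26 farthest to the right.

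The stretches of DNA before the start of 5 called genes are given as a choice made after the values were seen: Slc2a5 had the largest difference, and Slc2a1, Hk2, Pfkfb3 and Pfkfb4 are textbook HIF targets. They are the 250 bases upstream of the first RefSeq start of each gene (RefSeq, build GRCm38.p6), written 5′ to 3′ on the strand of the gene. Capitals mark ACGTG or GCGTG, the core letters of the HIF site, or their reverse complements CACGT and CACGC.
Slc2a5 (chr4:150119094-150119343, plus strand): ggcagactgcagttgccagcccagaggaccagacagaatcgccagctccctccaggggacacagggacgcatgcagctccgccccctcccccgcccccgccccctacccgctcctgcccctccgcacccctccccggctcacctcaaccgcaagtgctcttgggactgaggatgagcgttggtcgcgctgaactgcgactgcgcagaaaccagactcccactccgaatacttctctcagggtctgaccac
Slc2a1 (chr4:119108495-119108744, plus strand): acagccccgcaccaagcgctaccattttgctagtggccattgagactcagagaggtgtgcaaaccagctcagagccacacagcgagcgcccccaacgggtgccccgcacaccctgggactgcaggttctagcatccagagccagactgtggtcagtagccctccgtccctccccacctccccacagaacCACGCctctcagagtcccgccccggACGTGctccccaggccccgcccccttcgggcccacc
Hk2 (chr6:82774455-82774704, minus strand): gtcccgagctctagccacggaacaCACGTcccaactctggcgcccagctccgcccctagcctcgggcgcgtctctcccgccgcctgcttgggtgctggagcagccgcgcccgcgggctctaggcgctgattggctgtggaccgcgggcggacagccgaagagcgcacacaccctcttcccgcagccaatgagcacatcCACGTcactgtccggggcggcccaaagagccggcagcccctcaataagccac
Pfkfb3 (chr2:11553930-11554179, minus strand): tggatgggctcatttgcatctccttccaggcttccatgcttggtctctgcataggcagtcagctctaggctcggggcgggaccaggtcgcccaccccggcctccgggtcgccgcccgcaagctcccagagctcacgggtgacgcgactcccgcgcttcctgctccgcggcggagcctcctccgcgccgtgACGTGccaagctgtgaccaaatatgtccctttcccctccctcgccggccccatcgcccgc
Pfkfb4 (chr9:108991652-108991901, plus strand): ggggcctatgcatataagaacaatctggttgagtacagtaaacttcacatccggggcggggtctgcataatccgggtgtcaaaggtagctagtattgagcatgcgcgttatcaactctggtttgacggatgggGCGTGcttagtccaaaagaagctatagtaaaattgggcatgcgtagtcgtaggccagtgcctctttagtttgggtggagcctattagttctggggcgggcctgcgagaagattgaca
The Slc2a5 stretch held neither motif, those of Slc2a1 and Hk2 held 2 matches each, and those of Pfkfb3 and Pfkfb4 held 1 each. Pfkfb3 also has a second RefSeq start, not printed. Its window, up to 50 bases after that start, held 4 matches and 1 CACGTG. Over windows that also take in the 50 bases after the start, 14 of 17 lower members with a window, 2 of 3 higher members and 15 of 18 members that did not pass held a match in their first window. Of the first windows of all genes 43.8% did. ACGTG is also part of CACGTG, the E-box that other factors bind, which 7.24% of those windows held. Both motifs contain CG. First windows of all genes held a median of 7 CG dinucleotides, and those of the 5 genes above held 15 to 30. The shares of windows with a match were not matched for CG content. A match is a run of letters and no record of binding.

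All 6 carriers passed the test, 5 lower and 1 higher. Slc2a5, the fructose carrier GLUT5, had levels of 6.18, 6.36 and 6.16 (log2) in KO-labelled samples against 11.02, 11.08 and 10.76 in WT. The groups lay far apart, and the KO-labelled values fell below the median of all clusters (6.72). That is a 26.3-fold lower level (log2 difference -4.72, SE 0.10; adjusted p = 4.01e-07 by limma). Of its 19 exon-level probesets 17 passed as lower and 0 as higher, where 2.16% of all probesets were lower, 2.59% higher and 4.75% either. Bright probesets, meaning those whose mean in either group reached the median probeset level, ran between -6.19 and -0.14.

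Slc2a1, which encodes GLUT1, the carrier for basal glucose uptake, stood at 8.94, 9.01 and 9.10 in KO-labelled samples and at 10.10, 10.29 and 10.07 in WT. It was 2.19-fold lower (-1.13, SE 0.08; adjusted p = 5.2e-05 by limma), and all 10 of its probesets passed as lower. Slc2a3, which encodes the high-affinity glucose carrier GLUT3 best known from neurons, went the other way, with 8.30, 8.31 and 8.38 in KO-labelled samples and 6.77, 7.13 and 7.31 in WT. It rose by 1.26 (SE 0.13; adjusted p = 0.00038 by limma), and the KO-labelled arrays were the less spread (SD 0.04 against 0.27 in WT, n = 3 each). Of 9 neuron markers 0 passed in limma, 2 were higher at an unadjusted p under 0.05, and their list means were 5.81 to 6.10 in KO-labelled and 5.83 to 5.90 in WT arrays. Slc2a6, which encodes the lysosomal carrier GLUT6, fell by 0.25 (SE 0.05; adjusted p = 0.0117 by limma), but its exon-level median did not pass (-0.06, adjusted p = 0.754).

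Both lactate carriers among the 41 genes, Slc16a1 and Slc16a3, were lower, whereas another, Slc16a7 (MCT2), was higher by 1.00 (SE 0.06; adjusted p = 2.97e-05 by limma). Slc16a1, which encodes MCT1, had 6.87, 6.99 and 6.62 in KO-labelled samples against 7.86, 8.19 and 8.14 in WT, a 2.36-fold lower level (-1.24, SE 0.12; adjusted p = 0.000325 by limma). Slc16a3, which encodes MCT4, the exporter of strongly glycolytic cells, had 6.93, 6.83 and 6.84 in KO-labelled samples against 7.97, 7.81 and 7.68 in WT. It was 1.94-fold lower (-0.95, SE 0.08; adjusted p = 0.000165 by limma). No array of one group reached into the other for either gene. Slc2a1 and Slc16a1 are also known from vessel cells and astrocytes. Of vessel markers 3 of 10 were lower (30%) and of astrocyte markers 1 of 10 (10%), against 14.0% of all clusters. Among the 10 vessel markers 8 lay below the median level. Vessel list means were 5.73 to 5.82 in KO-labelled and 5.99 to 6.50 in WT arrays, and astrocyte list means were 6.96 to 7.15 and 7.21 to 7.74. Their part in the lower Slc2a1 and Slc16a1 was not tested.

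**Figure D2:**
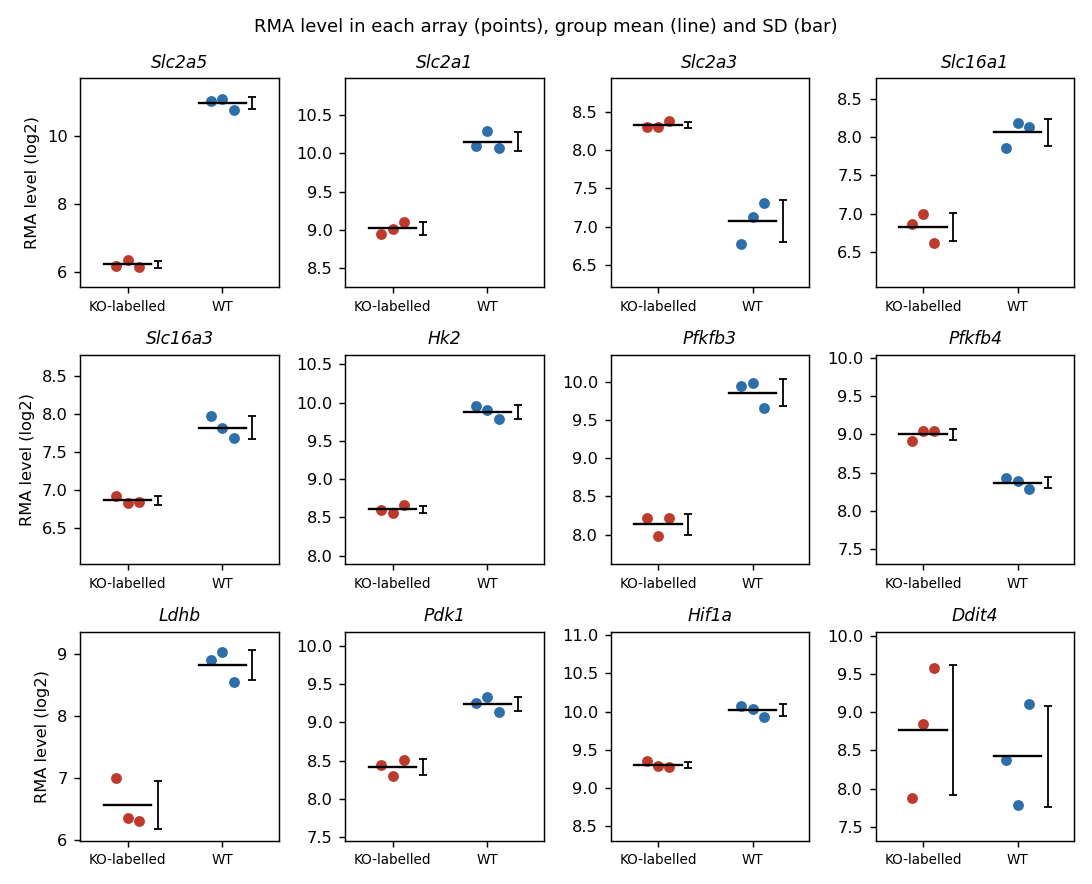
RMA level (log2, y axis) of the 11 genes called with at least a 1.5-fold difference, and of Ddit4, in each KO-labelled and WT array, with the group mean as a line and the SD as a bar (n = 3 each). Apart from Ddit4, each gene has its 3 KO-labelled arrays wholly above or wholly below the 3 WT arrays; the panels have their own y axes.

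Of 24 genes of glycolysis, fructose entry and pyruvate handling, 8 were lower, 3 were higher and 13 did not pass, with a median of -0.19. At the entry, Hk2, the inducible hexokinase, had 8.59, 8.56 and 8.66 in KO-labelled samples against 9.95, 9.90 and 9.78 in WT. The level was 2.41-fold lower (-1.27, SE 0.06; adjusted p = 1.28e-05 by limma), and all 25 probesets passed as lower. Hk1, the housekeeping hexokinase, fell by 0.29 (SE 0.05; adjusted p = 0.0058 by limma). Hk3, a hexokinase of myeloid cells, was at 8.68 to 8.80 in KO-labelled and 8.66 to 8.83 in WT arrays and did not pass (-0.04, adjusted p = 0.854). Khk, which encodes the ketohexokinase that phosphorylates fructose, fell by 0.51 (SE 0.07; adjusted p = 0.00142 by limma), so carrier and kinase of fructose were both lower. Gpi1, the isomerase that follows hexokinase, rose by 0.52 at the exon level (SE 0.09; adjusted p = 0.00622 by limma), and 35 of its 36 probesets lay above 0.

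At the phosphofructokinase step 2 of 3 regulators and 1 of 3 subunits passed. Pfkfb3 makes the sugar bisphosphate that activates phosphofructokinase, and it had 8.21, 7.98 and 8.21 in KO-labelled samples against 9.94, 9.98 and 9.65 in WT. It was 3.30-fold lower (-1.72, SE 0.11; adjusted p = 3.59e-05 by limma), with 29 of 32 probesets lower. Its relative Pfkfb4 had 8.92, 9.04 and 9.05 in KO-labelled samples against 8.43, 8.39 and 8.29 in WT. It rose by 0.63 (SE 0.06; adjusted p = 0.000334 by limma), and all 26 probesets lay above 0, with 8 passing. Pfkfb2, another member of that family, did not pass (0.09, adjusted p = 0.284). Of the phosphofructokinase subunits, the liver type Pfkl (-0.19, adjusted p = 0.118) and the muscle type Pfkm (0.06, adjusted p = 0.653) did not pass. The platelet type Pfkp rose by 0.30 (SE 0.08; adjusted p = 0.0226 by limma), a call that went when any KO-labelled array, WT replicate 1 or WT replicate 3 was left out (highest adjusted p 0.0743).

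The middle enzymes of glycolysis did not pass the test as measured by cluster or probeset median. For Gapdh, Pgk1, Pgam1 and Eno1, read from exon-level medians, absence of a call says less. In simulated data 5 of 100 changes of 0.5 (log2) were recovered at that level, against 60 of 100 at the gene level. Only 200 features were changed in each simulation, far fewer than were called in these data. Adjustment was therefore stricter there, and the recoveries do not carry over as rates. Aldoa, Aldoc, Tpi1, Gapdh, Pgk1, Pgam1 and Eno1, which take fructose bisphosphate to phosphoenolpyruvate, had differences between -0.35 and 0.14 and none passed in limma (lowest adjusted p 0.0904, for Aldoc, the 1 of 7 with an unadjusted p under 0.05). Aldoc, an aldolase known from astrocytes, was at 8.14 to 8.21 in KO-labelled arrays and at 8.27, 8.81 and 8.49 in WT. Its highest value was in WT replicate 2, as were the highest means of the astrocyte, vessel, neutrophil and monocyte lists, among others. The part of these cells in Aldoc was not tested. Without WT replicate 1 Aldoc was called (-0.48, adjusted p = 0.0219). Pgam1, the phosphoglycerate mutase, had 22 of its 23 probesets below 0, and it was called by the probeset mean (-0.47, adjusted p = 0.00523) but not by the median (-0.23, adjusted p = 0.239). Gapdh, Pgk1 and Ldha have near-identical pseudogene copies, and the reads of their probes are uncertain to that extent. Pgk1 and Pdk3 are X-linked, and without WT replicate 3 they did not pass either (-0.33 and -0.17, adjusted p = 0.232 and 0.203). Eno2, the enolase known from neurons, fell by 0.54 (SE 0.13; adjusted p = 0.0202 by limma) at a level under the median of all clusters, and lost the call without any 1 of WT replicates 1 and 2 and KO replicates 1 and 3.

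The pyruvate kinase gene Pkm is read poorly by its gene-level cluster, which stood at 5.20, 5.91 and 6.01 in KO-labelled and 5.88, 5.92 and 5.87 in WT arrays. Its 24 exon-level probesets had medians of 9.36, 9.48 and 9.54 in KO-labelled and 9.82, 9.95 and 9.62 in WT arrays. All 24 differences lay below 0, but neither reading passed (cluster -0.18, adjusted p = 0.576; exon-level median -0.34, adjusted p = 0.0986).

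Both lactate dehydrogenase genes were lower, by different amounts. Ldhb, whose subunit favours the turning of lactate into pyruvate, had 7.0, 6.36 and 6.31 in KO-labelled samples against 8.89, 9.02 and 8.54 in WT. It was 4.8-fold lower (-2.26, SE 0.21; adjusted p = 0.000216 by limma). By the exon-level median the difference was -3.04, with all 15 bright probesets lower. A second, dimmer cluster annotated as Ldhb differed by -0.28 (adjusted p = 0.357), and the mean of both clusters by -1.27. Ldha, whose subunit favours lactate, had 9.47, 9.49 and 9.90 in KO-labelled and 10.14, 10.16 and 10.19 in WT arrays at the exon level. It fell by 0.55 (SE 0.13; adjusted p = 0.0294 by limma), a call lost without any 1 array other than KO replicate 3 (highest adjusted p 0.0981). Pdk1, a kinase that shuts off pyruvate dehydrogenase, had 8.44, 8.30 and 8.51 in KO-labelled samples against 9.25, 9.33 and 9.14 in WT. It was 1.77-fold lower (-0.82, SE 0.08; adjusted p = 0.000247 by limma), while Pdk3 did not pass (-0.17, adjusted p = 0.112).

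**Figure D3:**
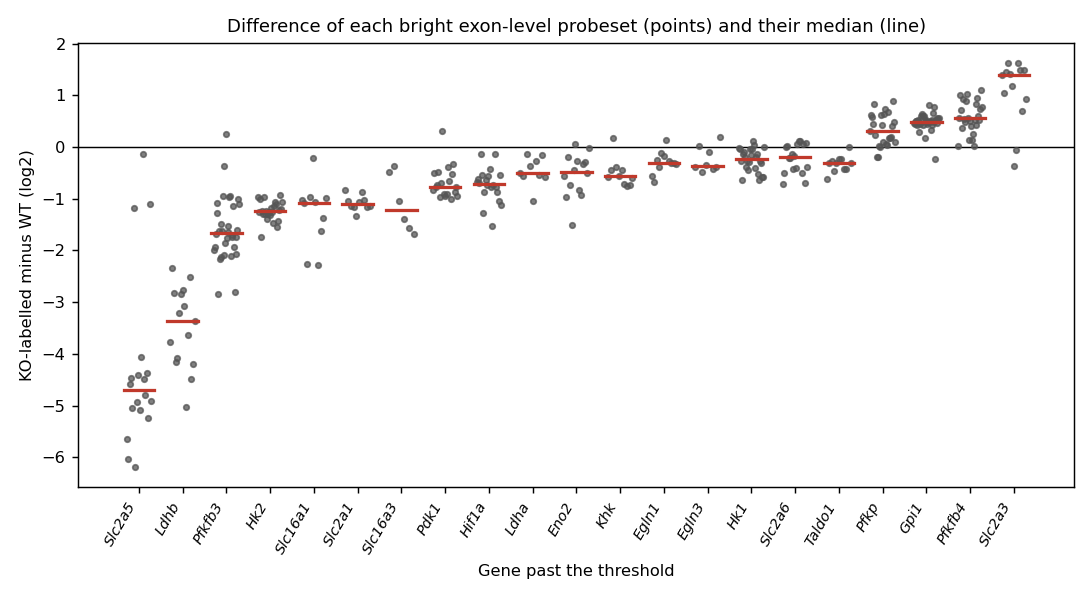
Difference of every bright exon-level probeset (points, log2, KO-labelled minus WT) for the 21 called genes, with the median as a line. For Slc2a5 most points lie near the median of -4.69 with a few near 0, and for Hk2 and Slc2a1 all points lie below 0.

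Ratios between related genes within each array are given as a description, since none of 12 pairs passed. The log2 ratio of Slc2a1 over Slc2a3 differed by -2.40 (KO-labelled minus WT) and that of Pfkfb3 over Pfkfb4 by -2.35. For Hk2 the difference was -0.98 over Hk1 and, at the exon level, -1.25 over Hk3. For Pdk1 over Pdk3 it was -0.65. For Ldha over Ldhb it was 2.50 at the exon level, and for Pfkp over Pfkl 0.49. The groups were apart in 9 pairs, each with an exact two-sided permutation p of 0.1, the smallest that 3 against 3 arrays allow (0.13 after Benjamini-Hochberg adjustment over the 12 pairs). Each of these 9 pairs holds a gene already called above, so a gap in its ratio adds little. The share of other gene pairs with such a gap was not computed. In Slc16a3 over Slc16a1 (0.29), Egln3 over Egln1 (0.14) and Bnip3 over Bnip3l (-0.13) the groups overlapped.

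**Figure D4:**
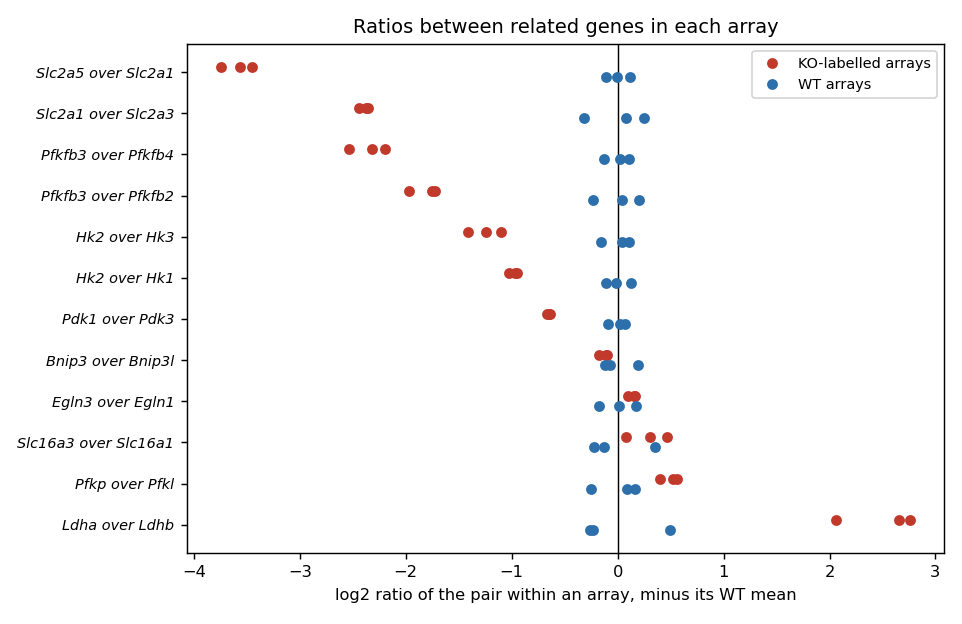
The log2 ratio of 2 related genes within each array, minus its mean over the WT arrays (x axis), for 12 pairs, with KO-labelled arrays as the upper and WT arrays as the lower points of each row. The KO-labelled points of Slc2a5 over Slc2a1 lie at -3.74 to -3.45, and those of Ldha over Ldhb at 2.06 to 2.76.

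Of the 3 pentose phosphate genes measured, Pgd and Tkt hardly moved and Taldo1 was slightly lower. Pgd, which encodes the second oxidative enzyme, was at 9.33 to 9.39 in KO-labelled and 9.32 to 9.39 in WT arrays (0.02, SE 0.05). Tkt, the transketolase, was at 8.82 to 8.88 and 8.73 to 8.93 (0.01, SE 0.06). Neither passed in limma (adjusted p = 0.85 and 0.92). Taldo1, the transaldolase, had 8.75, 8.81 and 8.80 in KO-labelled and 9.05, 9.07 and 8.97 in WT arrays. It fell by 0.24 (SE 0.05; adjusted p = 0.0133 by limma), but not when KO replicate 1, WT replicate 1 or WT replicate 2 was left out, nor by the exon-level median (adjusted p = 0.0503 to 0.239).

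Among 7 hypoxia genes, 3 were lower (42.9%), 0 were higher and 4 did not pass in limma, where 14.0% of all clusters were lower and 14.4% higher. At an unadjusted p under 0.05 the counts were 4 lower and 0 higher. The share of all features at that unadjusted threshold was not computed, here or beside the other lists. Hif1a had 9.35, 9.29 and 9.27 in KO-labelled samples against 10.08, 10.04 and 9.93 in WT. It was 1.64-fold lower (-0.71, SE 0.06; adjusted p = 0.000152 by limma), and all 20 of its probesets lay below 0. Egln1, Egln2 and Egln3 encode the oxygen-sensing prolyl hydroxylases that mark HIF for destruction. Egln1 fell by 0.47 (SE 0.06; adjusted p = 0.000851 by limma), though not by its exon-level median (-0.31, adjusted p = 0.0971), and Egln3, a HIF target itself, fell by 0.34 at a low level (4.20 to 4.32 in KO-labelled and 4.46 to 4.70 in WT arrays; limma, adjusted p = 0.0145). Egln2, which is not among the 41 genes, did not pass (0.15, SE 0.08; adjusted p = 0.225 by limma). The Egln3 call was lost without KO replicate 1, in the equal-variance test and by the exon-level median (adjusted p = 0.0539, 0.0544 and 0.0523). The mitophagy genes Bnip3 (-0.14, adjusted p = 0.131) and Bnip3l (-0.01, adjusted p = 0.977), both HIF targets, did not pass. Bnip3l read differently at the exon level, with means of 9.83 in KO-labelled and 10.12 in WT arrays. There 19 of its 20 probesets lay below 0, but the median did not pass either (-0.29, adjusted p = 0.0999 by limma).

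Ddit4, a stress-induced inhibitor of the kinase mTORC1, varied more within groups than between them. It had 7.88, 8.84 and 9.57 in KO-labelled samples against 8.37, 7.79 and 9.11 in WT (0.34, SE 0.47; limma, adjusted p = 0.673), and the difference was -0.06 without KO replicate 3 and 0.68 without WT replicate 3. Adm, which encodes the peptide adrenomedullin, was dim, at 4.23 to 5.14 and 4.19 to 4.94, and did not pass (0.23, adjusted p = 0.605).

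Uneven changes between the probesets of a gene were common in all genes and among these. limma's diffSplice, an F test per gene for such unevenness, called 17 of 39 members tested (43.6%), against 31.6% of all genes tested. In simulated data this step made 76 false calls beside 198 true ones, so calls are less secure than the adjusted p says. The strongest was Slc2a5 (adjusted p = 2.55e-39), where 2 bright probesets fell by 1.17 and 1.11 and 1 changed by -0.14 while the others fell by more than 4 on the log2 scale. Slc2a1, whose probesets ran between -1.33 and -0.82, was not called (adjusted p = 0.433). Positions of probesets were not used here, so no exon or isoform is named.

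Other genes of these pathways were read from lists made by function, beside 14.4% of all clusters higher and 14.0% lower. Of 14 other sugar and lactate carriers, 1 was higher (7.14%) and 2 were lower (14.3%), with a median difference of -0.03. Besides Slc16a7, Slc2a9, the urate carrier, fell by 0.67 (SE 0.12), and Slc37a2, a sugar phosphate exchanger, fell by 0.46 (SE 0.07). Of 26 other glycolysis, fructose and pyruvate genes, 3 were higher (11.5%) and 5 lower (19.2%), with a median of -0.08. Adpgk, an ADP-dependent glucokinase, rose by 1.11 (SE 0.06), and Mpc1, a subunit of the mitochondrial pyruvate carrier, fell by 1.08 (SE 0.12). Pfkfb1 rose by 0.84 (SE 0.16), but not by its bright probesets alone (0.21, adjusted p = 0.17) and not by the equal-variance test, where adjusted p = 0.0679. Of 17 gluconeogenesis and glycogen genes 2 were higher (11.8%) and 3 lower (17.6%), with a median of -0.04. They were led by the muscle glycogen phosphorylase gene Pygm (-0.97, SE 0.08), the glycogen synthase gene Gys1 (0.47, SE 0.07) and the brain glycogen phosphorylase gene Pygb (0.32, SE 0.06), the last not called by its exon-level median (0.34, adjusted p = 0.0831). These shares lie near those over all clusters. In limma 1 of 9 other pentose phosphate genes passed (11.1%), Prps2 (-0.33, SE 0.06), which makes the precursor of nucleotides, though not by its exon-level median (-0.27, adjusted p = 0.158).

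Of 10 HIF subunits and oxygen sensors, 2 were higher and 3 lower, with a median of 0.02, where 28.4% of all clusters were called in either direction. Vhl, which targets HIF for degradation, fell by 1.02 (SE 0.07), Cited2, a HIF target that restrains HIF, rose by 0.92 (SE 0.05), and Siah2, a ligase for the prolyl hydroxylases, fell by 0.75 (SE 0.08) but not by its exon-level median (-0.19, adjusted p = 0.204). Of 30 other hypoxia-induced genes 10 were higher (33.3%) and 3 lower (10%), with a median of 0.04, and 18 of the 30 lay below the median level. Among them 4 were read at the exon level, where 8.38% of all genes were higher. The higher genes include Pgm1, read from 1 dim probeset (means 3.73 in KO-labelled and 3.07 in WT arrays). They also include Gys1 and Pfkfb1, which stand in the lists above too. The lipid droplet gene Plin2 rose by 1.55 (SE 0.07) and the chemokine receptor gene Cxcr4 by 1.42 (SE 0.13). Pfkfb1, given above, comes next in size. Of 17 regulators of glucose metabolism 2 were higher (11.8%) and 5 lower (29.4%), 10 did not pass, and the median was -0.06. Mlxipl, which encodes the sugar-sensing transcription factor ChREBP, had 6.38, 7.03 and 6.24 in KO-labelled samples against 9.04, 8.79 and 8.69 in WT, and fell by 2.29 (SE 0.21; adjusted p = 0.00021 by limma). Rptor, a subunit of mTORC1, fell by 0.64 (SE 0.06), and Txnip, a sugar-induced brake on glucose uptake, by 0.48 (SE 0.07). Unless stated otherwise each gene named in these lists as rising or falling had a limma adjusted p of at most 0.00941.

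Neutrophils rely on glycolysis and are known for Hk3 and Slc16a3, and neutrophil markers varied between arrays. Of 14 such markers 0 were higher and 1 was lower (7.14%) in limma, where 14.4% and 14.0% of all clusters were. At an unadjusted p under 0.05 the counts were 0 and 2. The list means were 6.79, 6.26 and 7.37 in KO-labelled replicates 1 to 3 and 7.04, 8.09 and 7.46 in WT replicates 1 to 3. Of 9 monocyte markers 1 was higher (11.1%) and 4 were lower (44.4%), and 8 lay below the median level of all clusters. Of 9 oligodendrocyte markers 1 was higher (11.1%), with list means of 6.81 to 7.02 in KO-labelled and 6.79 to 6.90 in WT arrays. Of 4 measured erythroid markers 0 passed in limma and 1 was higher at an unadjusted p under 0.05, with list means of 6.79 to 7.03 and 6.38 to 6.99. The part of these cells in the results was not tested.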

How the data were processed

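Microglial RNA of 6 samples was measured on Affymetrix mouse exon arrays. The deposited values are on the log2 scale and were made by the authors with RMA, per the submitters' processing notes, where oligo and limma are listed besides for the exon level, without versions. RMA corrects background, equalises the arrays and summarises probes, and it compresses differences of dim genes. The genome build is not given in the sources used here. The gene level holds 16755 clusters and the exon level 1236087 probesets of the same 6 arrays, so the levels are not independent. All 12 value columns were mapped to samples. Their number, and no read depth, limits the precision.

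Symbols came from the platform annotation, updated through RefSeq (GRCm38.p6). At the gene level 14996 clusters had 1 symbol, all matched, 1019 had several and 740 none. Among exon-level probesets, 321091 carried 1 symbol (320193 matched), 7796 several and 907200 none. The cluster with the highest mean stood for a gene. limma 3.58.1 in R 4.3.3 (lmFit, eBayes, no covariate, two-sided) was run over each whole table, and calls were made at 0.05 after Benjamini-Hochberg adjustment. diffSplice used genes with at least 3 bright probesets. In data simulated on the gene level, 85 of 100 changes of 1 (log2) and 60 of 100 of 0.5 were recovered, with 6 false calls over 16755 clusters. On exon-level medians 58 of 100 and 5 of 100 were recovered, so absence of a call there says less. Each simulation changed 200 features, far fewer than were called in these data. That made the adjustment stricter, so the recoveries are likely too low for these data. Every member is accounted for, and values in every array are printed for called members with at least a 1.5-fold difference. From each other list up to 3 called genes with the largest difference are named. Members and lists were chosen with earlier results of these data known. Proteins were not compared, as no sequences were used here.

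Replicate numbers recur in both groups. Deviations from group means correlated at -0.029, -0.0071 and 0.039 between same-numbered arrays, so the numbers were not taken as pairs.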

Additional observations from a re-analysis of the deposited data

How the results depend on the processing

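Other settings were leaving out each array, the replicate number as a block, a second quantile normalization, trend and robust moderation, array weights, leaving out dim features, an equal-variance test, exon-level medians for all genes, and other ways to join probesets or clusters. Leaving out 1 array gave 13 to 17 lower and 3 to 4 higher members, 1858 to 2145 lower and 1928 to 2214 higher clusters. With the replicate block 17 members were lower and 4 higher, and 2096 clusters were lower and 2144 higher. Exon-level medians gave 12 lower and 3 higher members. Of 21 called members 14 kept call and direction throughout, and Slc2a6, Pfkp, Eno2, Ldha, Taldo1, Egln1 and Egln3 lost the call in at least 1 setting, with no change of sign. Of 19 members that did not pass, Pfkl (without WT replicate 3, adjusted p = 0.0354), Aldoc and Pgam1 (by probeset mean, adjusted p = 0.00523) passed in at least 1. The cause was not tested. Of 33 members read at both levels 31 had the same sign. Of 21 other named genes called, 16 kept the call throughout. Without a filter on probesets 18 members were called for exon usage. Dim genes, such as Adm and Egln3, are limited by the RMA floor.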
